A study of Homo sapiens with 20 samples.

Results

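E proteins are basic helix-loop-helix transcription factors that bind the short DNA motif called the E-box, as pairs with each other or with tissue-specific partners. ID proteins have the helix-loop-helix but lack the basic region that touches DNA, so that an E protein paired with an ID protein is kept off its sites. In the B lineage E proteins drive commitment, immunoglobulin gene expression and the plasma cell programme, ID proteins hold them back, and the acetyltransferases CBP and p300 act as their coactivators. The 6 genes described here were chosen as a gene family, with earlier results of these data known and by a rule that uses no measured value: the E protein genes TCF3 (which encodes E12 and E47), TCF4 (E2-2) and TCF12 (HEB), and the ID genes ID1, ID2 and ID3. They are 6 of the 19593 genes with a row in the deposited tables.

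MM1.S, an established human multiple myeloma cell line carried as wild type, was treated with 10 nM dCBP-30, a degrader of CBP and p300, or received DMSO as the vehicle, and was harvested at 2, 6 or 24 h, with 3 libraries in each of the 6 groups. Before harvest the cells received the uridine analogue 4-thiouridine (4sU) for an hour, which after alkylation reads as C in place of T. A read with such a conversion, a T>C read, therefore marks RNA made during labelling, total reads count all RNA at the 3′ end of the gene, and the labelled share is the percentage of a gene's reads that are T>C reads. Another 2 MM1.S libraries without 4sU, for which the labels give no treatment, gave the background of the assay. Libraries held between 12439672 and 18727376 reads on genes, and T>C reads made up between 4.71% and 8.62% of them in the labelled libraries against 0.794% and 0.809% without 4sU. The labels name replicates without saying whether they were separate cultures, so the p-values measure the spread between these libraries. All 8 plasma cell markers examined (SDC1, TNFRSF17, IRF4, PRDM1, XBP1, JCHAIN, MZB1 and SLAMF7) were at or above 1 in every library, in RPM, the reads of a gene per 1000000 reads of the library. Their summed level was 5237 to 6538 RPM over the DMSO libraries, and in dCBP-30 it was 4379 to 4786 at 2 h, 2166 to 2307 at 6 h and 784 to 992 at 24 h; the part of this in the members' results was not tested. Markers of monocytes summed to at most 1.55 RPM in any library and those of fibroblasts to at most 2.25. The T cell markers (CD3D, CD3E, CD2, TRAC) summed to between 1.97 and 7.66 RPM in the other labelled groups and to between 13.9 and 21.3 in dCBP-30 at 24 h, with CD3D at 0 in every library and CD3E at 195 to 286 reads there against 63 to 111 in DMSO; their part in the 24 h results was not tested.

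The 3′ UTRs that were counted lie, on hg38, at chr19:1609292-1611706 for TCF3 (ENSG00000071564, minus strand, 2415 bases), at chr15:57282588-57289853 for TCF12 (ENSG00000140262, plus strand), at chr20:31605838-31606515 for ID1 (ENSG00000125968, plus strand), at chr2:8682900-8684461 for ID2 (ENSG00000115738, plus strand) and at chr1:23557926-23558959 for ID3 (ENSG00000117318, minus strand). For TCF4 (ENSG00000196628, chromosome 18, minus strand) the transcript with the most reads was TCF4-282, which GENCODE types as a target of nonsense-mediated decay and whose annotated 3′ UTR of 18 blocks runs over coding exons from 55222335 to 55519016. A protein-coding transcript, TCF4-201, with its UTR at chr18:55222185-55228224, held 98.0% as many reads, and its changes kept their direction and side of the threshold in all tests. E12 and E47 are splice forms that share a 3′ UTR, and these counts cannot tell them apart. Reads that the counting tool listed as multimapping came to 23.1% of the number of ID2 reads, and to between 0.546% and 1.71% for the other members. In ID2 that share ran from 25.1% at 2 h to 28.8% at 24 h over the dCBP-30 groups, and lay between 18.2% and 23.1% over the DMSO groups; its part in the ID2 results was not tested. The methods state that multimapping reads were removed, and whether the ID2 counts include those listed could not be settled from the tables, so the ID2 values are uncertain to that extent.

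New RNA of both abundant E protein genes and of ID2 and ID3 fell within 2 h of dCBP-30. The deficit against DMSO was deepest early in TCF4 and ID2 and smaller at 24 h, that of TCF3 was larger at 6 and 24 h than at 2 h, and ID3 turned from a decrease at 2 and 6 h to an increase at 24 h. TCF12 and ID1, which had few reads, showed no change in T>C reads past the test at any time; under DESeq2 with T>C size factors TCF12 passed at 24 h. At 2 h, 4 of 6 members were lower in T>C reads with an adjusted p under 0.05 where 8.35% of the 10083 genes tested were lower, and 3 of them (all but TCF3) were lower by more than 2-fold, as were 7.14% of all genes. At 6 h, 4 of 6 were again lower, against 21.3% of all genes, each by more than 2-fold, against 17.1%. At 24 h, 3 of 6 were lower, against 37.1% of all genes, each by more than 2-fold, against 31.2%, and ID3 was higher, against 2.78%. Over all genes the median change was 0.05, -0.27 and -0.69 on the log2 scale at the 3 time points, and 0.05, 0.04 and -0.03 when library sizes came from T>C reads. That scaling also moved the split of called genes, to 1476 lower and 683 higher at 6 h and to 1886 lower and 1048 higher at 24 h. All 6 members passed the filter on low counts; ID1 did so through the dCBP-30 libraries at 24 h, the group where it was highest. Since these are bulk libraries, less RNA in each cell and fewer cells holding the RNA cannot be told apart.

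**Figure D1:**
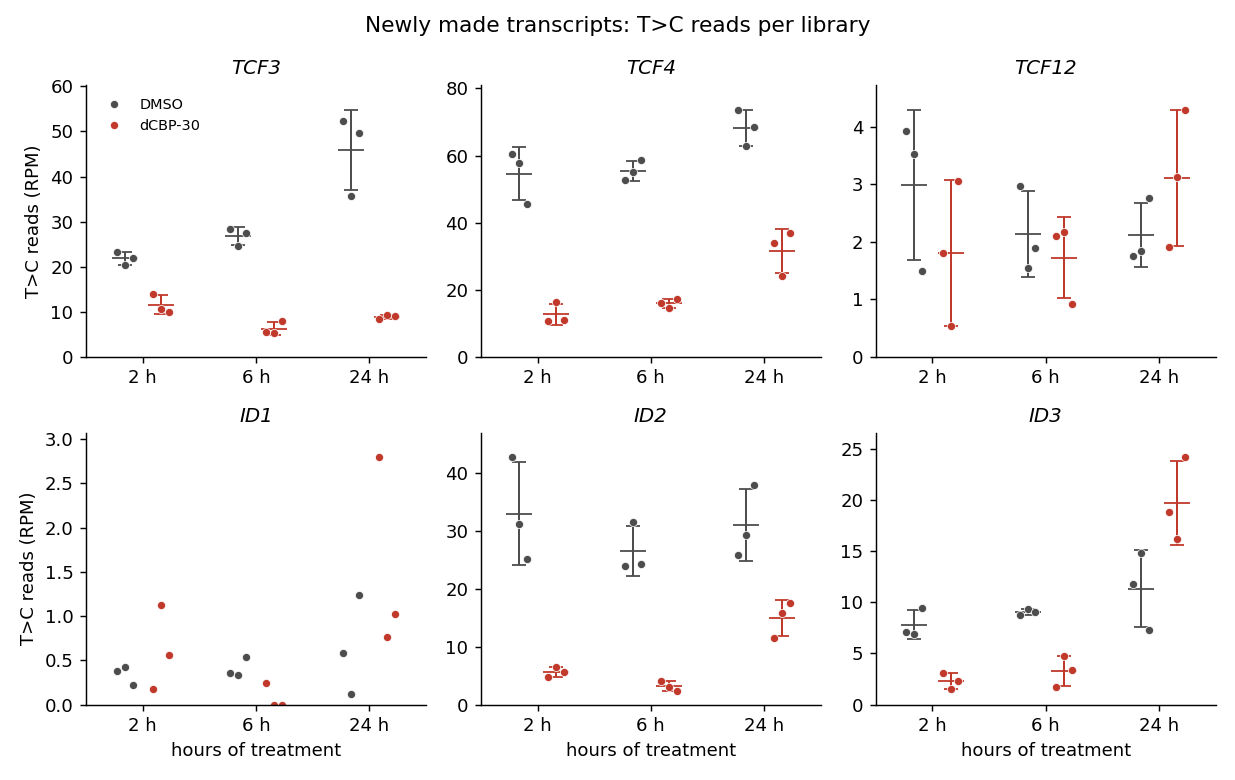
T>C reads of each member per library, in RPM scaled by all reads on genes and the TMM factor, plotted against hours of treatment. Each point is a library (DMSO grey, dCBP-30 red), lines are the mean ± SD of 3 libraries (not drawn for ID1, which has few reads), and the axes of the panels differ. TCF3 and TCF4 lie below DMSO at every time, while ID3 lies below at 2 and 6 h and above at 24 h.

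TCF3 encodes the E2A proteins E12 and E47, which are needed for B cell commitment. At 2 h its T>C reads stood at 23.3, 20.5 and 21.8 RPM in the 3 DMSO libraries and at 13.9, 10.7 and 10.0 RPM in the 3 dCBP-30 libraries. By 6 h the values were 28.4, 24.5 and 27.4 RPM in DMSO and 5.57, 5.27 and 7.85 in dCBP-30. At 24 h they were 52.3, 35.8 and 49.7 RPM in DMSO and 8.43, 9.18 and 9.01 in dCBP-30. All treated libraries lay below all DMSO libraries at each time, and the gap widened. The log2 fold change was -0.93 (SE 0.20, adjusted p = 0.00046) at 2 h, -2.10 (SE 0.21, adjusted p = 1.1e-12) at 6 h and -2.37 (SE 0.20, adjusted p = 6.6e-15) at 24 h. The change at 6 h differed from that at 2 h by -1.18 (SE 0.28, adjusted p = 0.0035), where 7.35% of all genes differed downwards; with library sizes from T>C reads this TCF3 T>C reads difference between 6 and 2 h was -0.87 (adjusted p = 0.054). The change at 24 h differed from that at 2 h by -1.44 (SE 0.28, adjusted p = 5.7e-05), where 23.0% of all genes differed downwards. The median gene differed by -0.72, and over the other settings tried the TCF3 difference ranged from -1.68 to -0.71 (adjusted p up to 0.039). The vehicle cells moved too: their TCF3 T>C reads rose by 1.07 on the log2 scale from 2 to 24 h (SE 0.19, adjusted p = 0.00075), as did 5.49% of all genes. The median gene also rose in these cells, by 0.49. Total TCF3 reads in DMSO did not pass the test between these times (0.19, adjusted p = 0.621). T>C reads in the dCBP-30 libraries alone averaged 11.5 ± 2.07 RPM (SD, n = 3) at 2 h, then 6.23 ± 1.41, and 8.87 ± 0.394 RPM by 24 h.

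Total TCF3 reads followed later. At 2 h they were 327, 373 and 444 RPM in DMSO and 417, 468 and 391 in dCBP-30, and the groups overlapped (log2 fold change 0.16, SE 0.13, adjusted p = 0.595). At 6 h the DMSO libraries held 480.3, 433 and 422 RPM and the dCBP-30 libraries 184, 174 and 233. At 24 h the values were 497, 371 and 437 RPM in DMSO and 131, 142 and 142 in dCBP-30. The groups were apart at both later times, with a log2 fold change of -1.18 (SE 0.13, adjusted p = 6.4e-08) at 6 h and -1.65 (SE 0.13, adjusted p = 8.6e-11) at 24 h. Both differed from the change at 2 h, by -1.33 (adjusted p = 5.7e-06; 10.7% of all genes differed downwards) and by -1.81 (adjusted p = 1.5e-08; 22.8%).

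TCF4 encodes E2-2, an E protein also known for its part in plasmacytoid dendritic cells and in plasma cell formation. Its T>C reads at 2 h were 60.5, 57.7 and 45.7 RPM in DMSO and 10.7, 16.2 and 10.9 in dCBP-30. At 6 h they were 52.6, 55.1 and 58.7 RPM in DMSO against 16.2, 14.5 and 17.2, and at 24 h 73.7, 62.9 and 68.5 RPM against 33.8, 24.1 and 36.8. Treated libraries were below DMSO at each time, most of all at 2 h. The log2 fold change was -2.11 (SE 0.18, adjusted p = 1.6e-14) at 2 h, -1.80 (SE 0.18, adjusted p = 1.3e-12) at 6 h and -1.11 (SE 0.17, adjusted p = 3.0e-07) at 24 h. The change at 24 h was smaller than at 2 h, with a difference of 1.00 on the log2 scale (SE 0.25, adjusted p = 0.0015), where 3.02% of all genes differed upwards; the change at 6 h was not shown to differ from that at 2 h (0.31, SE 0.25, adjusted p = 0.561). Total reads were 330.4, 313 and 280.5 RPM in DMSO and 177, 168 and 208 in dCBP-30 at 2 h, 228, 283 and 304 RPM against 88.9, 75.7 and 73.2 at 6 h, and 278, 282 and 314 RPM against 176, 175 and 187 at 24 h. They were thus lowest at 6 h, changing by -0.74 (SE 0.12, adjusted p = 0.00016) at 2 h, -1.78 (SE 0.12, adjusted p = 8.0e-12) at 6 h and -0.70 (SE 0.12, adjusted p = 1.6e-05) at 24 h, the step from 2 to 6 h being -1.03 (SE 0.17, adjusted p = 5.9e-05). The 24 h values depended on the scaling. With library sizes from T>C reads, TCF4 T>C reads at 24 h were at -0.46 (adjusted p = 0.026), and over all settings tried between -1.18 and -0.37. With no TMM factors, total reads were at -0.18 (adjusted p = 0.18), where the median gene stood at 0.58.

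TCF12 encodes HEB, the third E protein. It had between 169 and 698 total reads per labelled library, of which 8 to 80 were T>C reads. T>C reads at 2 h were 3.92, 3.53 and 1.49 RPM in DMSO and 1.81, 0.528 and 3.07 in dCBP-30, and the groups overlapped at all 3 times. The log2 fold change was -0.72 (SE 0.52, adjusted p = 0.474) at 2 h, -0.30 (SE 0.52, adjusted p = 0.745) at 6 h, where its sign turned under 3 other scalings, and 0.56 (SE 0.51, adjusted p = 0.42) at 24 h, where TCF12 T>C reads ranged from 0.16 to 1.30 over the settings tried, the highest in DESeq2 with T>C size factors (adjusted p = 0.044). With such standard errors a change of 2-fold was not detectable at this depth. Total TCF12 reads did separate at 24 h: they were 10.95, 14.1 and 15.7 RPM in DMSO and 31.7, 38.4 and 26.6 in dCBP-30, a rise of 1.25 on the log2 scale (SE 0.20, adjusted p = 6.2e-06). At 2 h and 6 h the total change was -0.34 (adjusted p = 0.407) and 0.02 (adjusted p = 0.932), and the 24 h change differed from that at 2 h by 1.59 (SE 0.28, adjusted p = 5.1e-05), where 18.4% of all genes differed upwards.

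**Figure D2:**
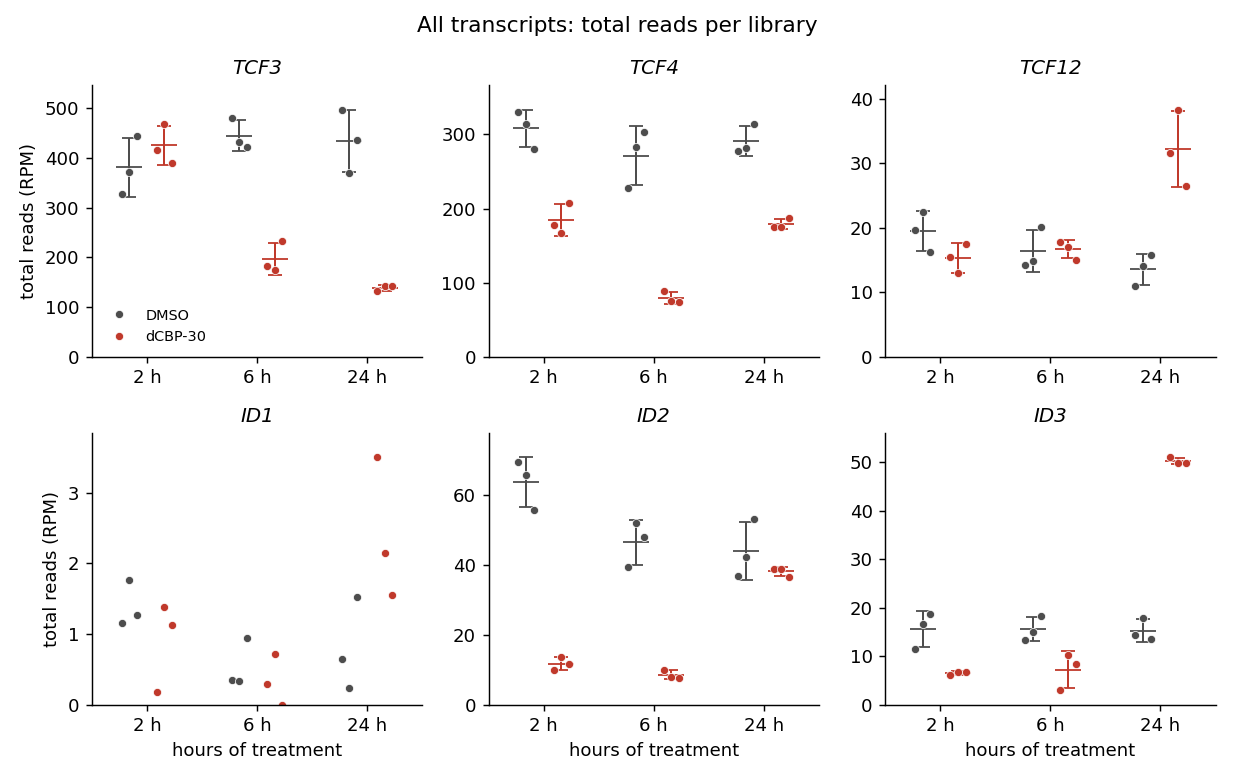
Total reads of each member per library, in RPM scaled in the same way, against hours of treatment. Points are libraries (DMSO grey, dCBP-30 red) and lines are mean ± SD of 3 libraries, not drawn for ID1; the axes of the panels differ. TCF3 overlaps DMSO at 2 h and is below it later, TCF4 is lowest at 6 h, ID2 meets DMSO again at 24 h, and TCF12 and ID3 lie above DMSO at 24 h.

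ID2 encodes an inhibitor with a short-lived transcript, and T>C reads made up 51.7% of its pooled DMSO reads at 2 h, the largest share among the members at that time. T>C reads at 2 h were 42.7, 31.2 and 25.2 RPM in DMSO and 4.83, 6.47 and 5.63 in dCBP-30. At 6 h they were 23.9, 31.6 and 24.4 RPM in DMSO against 4.07, 3.05 and 2.33, and at 24 h 25.9, 29.4 and 37.9 RPM against 11.6, 15.9 and 17.5. All treated libraries lay below all DMSO libraries at each time. Changes came to -2.54 (SE 0.23, adjusted p = 9.9e-14) at 2 h, -3.07 (SE 0.24, adjusted p = 1.7e-16) at 6 h and -1.05 (SE 0.21, adjusted p = 5.0e-05) at 24 h on the log2 scale. The decrease at 24 h was smaller than at 2 h by 1.49 (SE 0.31, adjusted p = 0.00015). It also depended on the scaling, at -0.38 (adjusted p = 0.17) when library sizes came from T>C reads, under which the median gene stood at -0.03.

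Relative to DMSO, total ID2 reads were already as low at 2 h as at 6 h. They were 69.3, 65.8 and 55.6 RPM in DMSO and 9.83, 13.6 and 11.6 in dCBP-30 at 2 h, 39.4, 52.0 and 48.0 RPM against 9.94, 8.05 and 7.54 at 6 h, and 36.7, 42.2 and 53.1 RPM against 38.9, 38.8 and 36.6 at 24 h. The groups were apart at 2 and 6 h and overlapped at 24 h. In order of time the log2 fold change was -2.44 (SE 0.17, adjusted p = 1.5e-10), -2.45 (SE 0.17, adjusted p = 1.5e-11) and -0.21 (SE 0.16, adjusted p = 0.268), and the change at 24 h differed from that at 2 h by 2.23 (SE 0.23, adjusted p = 2.2e-08). Without TMM factors the value at 24 h was 0.32 (adjusted p = 0.076).

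ID3 encodes the inhibitor that B cells induce on antigen receptor and BMP signalling. T>C reads at 2 h were 7.08, 6.91 and 9.41 RPM in DMSO and 3.10, 1.52 and 2.32 in dCBP-30. At 6 h they were 8.78, 9.38 and 9.02 RPM in DMSO and 1.74, 4.72 and 3.37 in dCBP-30. At 24 h the order turned, with 11.8, 14.9 and 7.32 RPM in DMSO and 18.8, 16.1 and 24.1 in dCBP-30. The groups did not overlap at any of the 3 times, but the 24 h gap was narrow, 16.1 against 14.9 RPM. ID3 changed by -1.77 (SE 0.32, adjusted p = 2.0e-05) at 2 h, -1.46 (SE 0.30, adjusted p = 1.0e-04) at 6 h and 0.80 (SE 0.28, adjusted p = 0.018) at 24 h on the log2 scale, and the change at 24 h differed from that at 2 h by 2.56 (SE 0.42, adjusted p = 2.9e-06). The increase at 24 h taken alone rested on single libraries: without replicate 3 of dCBP-30 it was 0.62 (adjusted p = 0.11) and without replicate 3 of DMSO 0.56 (adjusted p = 0.16).

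In total reads the ID3 increase was larger. They were 11.6, 16.6 and 18.7 RPM in DMSO and 6.04, 6.80 and 6.70 in dCBP-30 at 2 h, 13.31, 15.02 and 18.18 RPM against 2.99, 10.3 and 8.46 at 6 h, and 14.3, 17.95 and 13.5 RPM against 50.9, 49.8 and 49.8 at 24 h. ID3 thus went from 0.417 of its DMSO mean at 2 h to 3.29 times that mean at 24 h. Fitted changes were -1.26 (SE 0.28, adjusted p = 0.0071), -1.09 (SE 0.27, adjusted p = 0.0024) and 1.72 (SE 0.26, adjusted p = 4.6e-06), and the change at 24 h differed from that at 2 h by 2.98 (SE 0.38, adjusted p = 7.8e-07).

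ID1, the third inhibitor and a classical BMP target, had 352 reads over all 20 libraries, so that single reads moved its values. Its T>C reads numbered 5, 6 and 3 in DMSO and 2, 17 and 9 in dCBP-30 at 2 h, 5, 5 and 8 against 4, 0 and 0 at 6 h, and 9, 2 and 17 against 51, 14 and 19 at 24 h. No change passed the test in T>C reads (adjusted p = 0.731, 0.199 and 0.363) or in total reads (adjusted p = 0.787, 0.61 and 0.12), and the standard errors of 0.87 to 1.24 on the log2 scale leave large changes in either direction undetected at this depth. ID4, the remaining inhibitor of the family and not a member here, had 1 read in all libraries and was not tested.

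In total reads, 3 of 6 members were lower at 2 h (TCF4, ID2 and ID3), where 2.67% of 12267 genes were lower; 2 of these, ID2 and ID3, were lower by more than 2-fold, against 1.25%. At 6 h, 4 of 6 were lower, against 21.5%, each by more than 2-fold, against 8.67%. At 24 h, TCF3 and TCF4 were lower, against 29.9%, TCF3 by more than 2-fold, against 16.1%. TCF12 and ID3 were higher at that time, against 28.6%, both by more than 2-fold, against 15.0%. Without TMM factors the split over all genes in total reads turned to 1466 lower and 4442 higher at 6 h and to 2088 lower and 6094 higher at 24 h. The share of new RNA in vehicle cells differed widely among the members. In the pooled reads of the 3 DMSO libraries at 2 h, T>C reads made up 51.7% for ID2, 49.7% for ID3, 24.6% for ID1, 17.7% for TCF4, 15.3% for TCF12 and 5.71% for TCF3, where the median of 9856 genes was 9.11%. ID2 stood above 98.4% of these genes, ID3 above 98.1% and TCF3 above 30.7%. This share also moves with the number of T positions in the reads, which the files do not give per read.

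**Figure D3:**
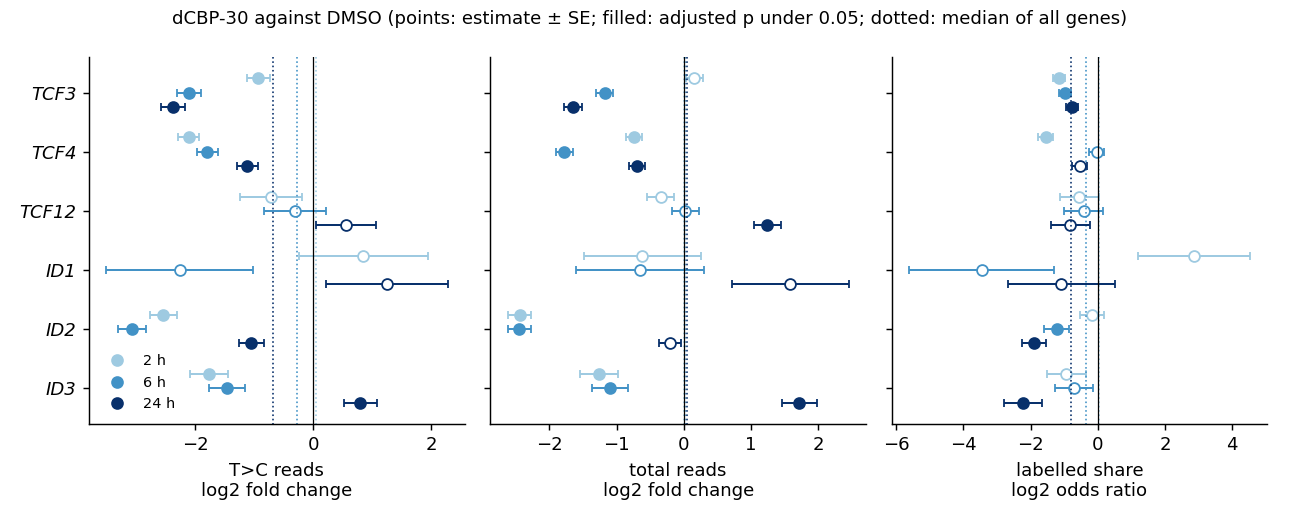
Change of each member in dCBP-30 against DMSO at 2, 6 and 24 h. The x axes give the log2 fold change of T>C reads, that of total reads and the log2 odds ratio of the labelled share; points are edgeR estimates ± SE from 3 libraries a group, filled where the adjusted p is under 0.05, and dotted lines are the median of all genes tested. TCF3 moves further below DMSO over time in both kinds of reads, while ID3 moves from below 0 at 2 h to above 0 at 24 h.

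The labelled share asks whether new RNA changed relative to the RNA already present. In the test of the odds that a read carries a conversion, TCF3 and TCF4 were lower at 2 h, where 5.13% of 10083 genes were lower, TCF3 and ID2 at 6 h (6.86%), and TCF3, ID2 and ID3 at 24 h (25.6%). With a change of more than 2-fold in the odds as well, these were TCF3 and TCF4 at 2 h (4.44% of all genes), ID2 at 6 h (4.20%) and ID2 and ID3 at 24 h (19.1%). The TCF3 share at 2 h was 7.13%, 5.49% and 4.91% in DMSO and 3.33%, 2.28% and 2.56% in dCBP-30. At 24 h it was 10.54%, 9.65% and 11.4% in DMSO against 6.41%, 6.44% and 6.37%. The groups were apart at all 3 times, with log2 odds ratios of -1.15 (SE 0.18, adjusted p = 7.5e-05), -0.98 (SE 0.18, adjusted p = 0.00087) and -0.78 (SE 0.18, adjusted p = 0.0028). The median gene stood at 0.02, -0.34 and -0.79, so that at 24 h the TCF3 value was close to that of the median gene.

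The TCF4 share fell at 2 h and overlapped DMSO at 6 h, when its total reads had also fallen. It was 18.3%, 18.4% and 16.3% in DMSO and 6.04%, 9.69% and 5.26% in dCBP-30 at 2 h, then 23.1%, 19.5% and 19.3% against 18.2%, 19.1% and 23.4% at 6 h. The log2 odds ratio was -1.55 (SE 0.23, adjusted p = 5.0e-05) at 2 h and -0.04 (SE 0.23, adjusted p = 0.955) at 6 h, a difference of 1.52 (SE 0.33, adjusted p = 0.0079), where 1.25% of all genes differed upwards. The difference between 24 and 2 h was 1.01 (SE 0.33, adjusted p = 0.043; 1.81%), and several single libraries decided that call. At 24 h the share was 26.5%, 22.3% and 21.8% in DMSO and 19.3%, 13.7% and 19.7% in dCBP-30, apart but short of the test (log2 odds ratio -0.54, SE 0.23, adjusted p = 0.079). The median gene was lower than TCF4 at that time, at -0.79.

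In ID2 the groups overlapped first and were apart later. At 2 h, with new and total reads both down, the share was 61.6%, 47.4% and 45.2% in DMSO and 49.1%, 47.6% and 48.6% in dCBP-30, overlapping (log2 odds ratio -0.17, SE 0.37, adjusted p = 0.883). At 24 h, with total reads overlapping DMSO, it was 70.7%, 69.7% and 71.4% in DMSO and 29.9%, 40.9% and 47.9% in dCBP-30 (log2 odds ratio -1.89, SE 0.36, adjusted p = 0.0006). The difference between 24 and 2 h was -1.72 (SE 0.51, adjusted p = 0.031; 10.8% of all genes differed downwards), with adjusted p between 0.017 and 0.081 when single libraries were left out. The 6 h value of -1.22 (SE 0.37, adjusted p = 0.047) was close to the threshold and lost the call without any of 5 of the 6 libraries at that time, all but replicate 3 of DMSO, with adjusted p between 0.064 and 0.16. ID3 had 82.4%, 82.7% and 54.3% in DMSO and 37.0%, 32.5% and 48.4% in dCBP-30 at 24 h (log2 odds ratio -2.22, SE 0.56, adjusted p = 0.0063), while its groups overlapped at 2 and 6 h. At 24 h ID3 thus had more T>C reads and more total reads than DMSO and yet a smaller labelled share.

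**Figure D4:**
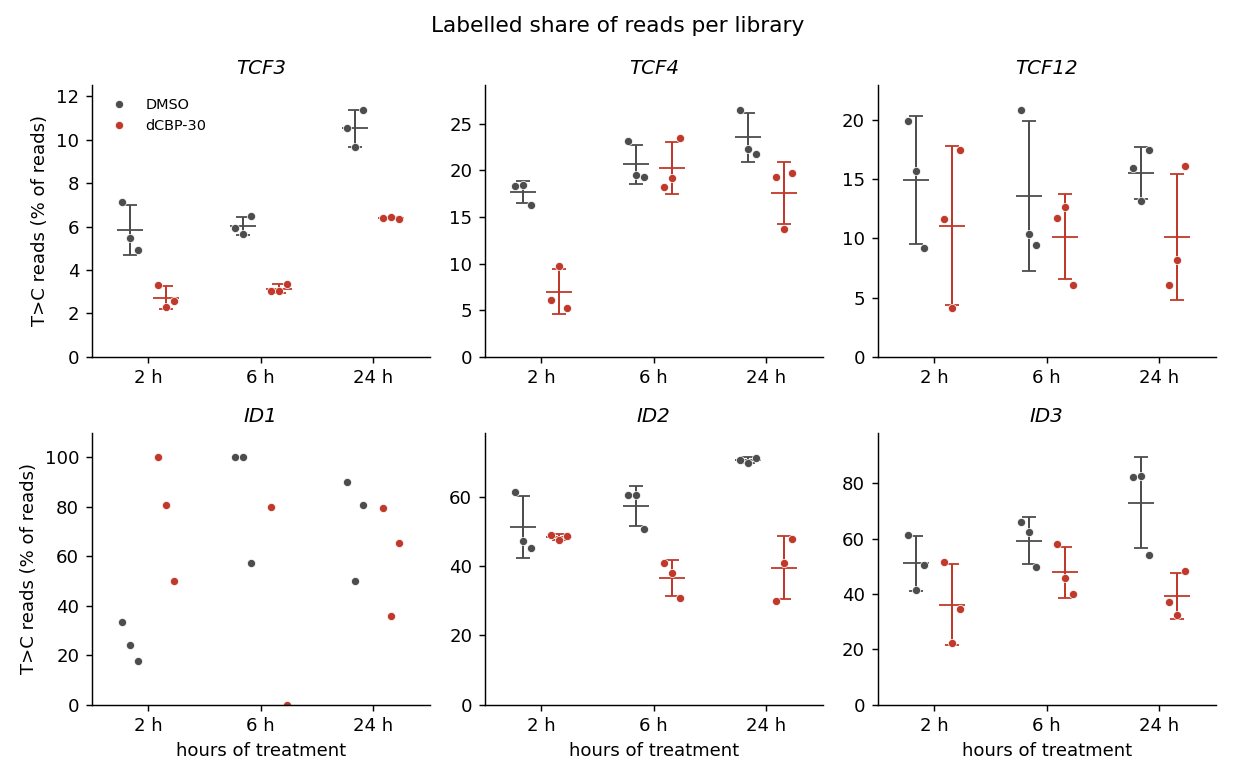
Labelled share of each member per library, as T>C reads in percent of the gene's reads, against hours of treatment. Points are libraries (DMSO grey, dCBP-30 red) and lines are mean ± SD of 3 libraries, not drawn for ID1, where a library with no reads has no point; the axes of the panels differ. TCF3 is below DMSO throughout, TCF4 at 2 h and again at 24 h, ID2 at 6 and 24 h, and ID3 at 24 h. At 24 h the median gene also had a lower share, with a log2 odds ratio of -0.79.

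The 24 h shares stand beside a shift in the whole libraries. The median gene had a log2 odds ratio of -0.79 at 24 h, and the conversions counted per T>C read were 1.43 to 1.51 in the 3 dCBP-30 libraries against 2.46 to 2.51 in the 3 DMSO libraries. In TCF3 they were 1.22, 1.27 and 1.69 against 2.18, 2.36 and 2.37, and in ID3 1.39, 1.65 and 1.63 against 3.29, 3.80 and 3.84. The means of 3 libraries were lower too in TCF4 (1.60 against 2.735), TCF12 (1.27 against 2.89) and ID2 (1.72 against 3.10), while ID1 had few reads. The part of this shift in the members' shares and T>C reads at 24 h, and in their differences from 2 h, was not tested. At 2 h the whole libraries stood at 2.13 to 2.23 and 2.17 to 2.22. The 2 whole libraries without 4sU stood at 0.929 and 0.919 conversions per T>C read. The means of the members there were 1.0 in TCF3, TCF4, TCF12 and ID3 and 1.02 in ID2. Averaged over the 3 time points, the labelled share in dCBP-30 minus that in DMSO was -3.37 percentage points in TCF3 (p = 0.00025, the smallest that 8000 arrangements allow), -5.67 in TCF4 (p = 0.0055), -18.3 in ID2 (p = 0.0025), -20.1 in ID3 (p = 0.00475) and -4.23 in TCF12 (p = 0.084), each from a two-sided exact permutation test with labels permuted within time points. These 5 tests were not adjusted for their number, and ID1 was left out because a library had no read of it. The share of T>C reads in the whole library was also lower in each dCBP-30 library than in each DMSO library of its time. It was at most 5.691% against at least 5.995% at 2 h, 5.278% against 6.241% at 6 h and 6.865% against 8.146% at 24 h. These p-values therefore do not set the members apart from the whole libraries, and the part of that drop in them was not tested.

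T>C reads without 4sU show how much of each share is background. The 2 libraries had 0.426% and 0.490% for TCF3, 0.384% and 0.470% for TCF4, 2.18% and 2.42% for ID2 and 0.477% and 0.301% for ID3. TCF12 had 1 of 227 reads in replicate 1 and 18 of 220 in replicate 2, or 8.18% (95% exact binomial interval 4.92% to 12.6%, which covers counting error only). That was above its share in dCBP-30 replicate 2 at 2 h (4.08%), replicate 3 at 6 h (6.10%) and replicates 1 and 2 at 24 h (6.05% and 8.17%). The other labelled libraries lay above it. In the vehicle cells no member other than TCF3 passed the test between 2 h and a later time. Total ID2 reads had the smallest unadjusted p among the others, at -0.53 on the log2 scale between 24 and 2 h (adjusted p = 0.205).

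The use of the 3′ UTR was compared for the 3 E protein genes through an annotated transcript that ends early. For TCF3 this transcript covers the first 742 of 2415 bases after the stop codon and held 53.2% to 65.2% of the total reads of a library. At 6 h this share was 61.6% ± 1.11 in dCBP-30 and 53.5% ± 0.480 in DMSO (SD, n = 3 each) with no overlap. The means stood in the opposite order at 2 h, 55.2% ± 1.13 against 58.4% ± 1.80, where the groups overlapped. At 24 h they stood in that opposite order too, 61.0% ± 1.48 against 63.9% ± 1.15, again with no overlap. Over the 3 time points the difference was 0.637 percentage points in TCF3 (two-sided exact permutation p = 0.683), 0.529 in TCF4 (p = 0.722) and -2.21 in TCF12 (p = 0.33). Differences of opposite sign cancel in this average, so it cannot speak to a change at a single time, which was not tested.

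EP300 and CREBBP encode p300 and CBP, whose proteins dCBP-30 degrades; their RNA is no check of that. EP300 T>C reads were 27.6 ± 11.3 RPM in DMSO and 30.1 ± 3.09 in dCBP-30 at 2 h (SD, n = 3 each), and rose at 24 h by 0.94 on the log2 scale (SE 0.20, adjusted p = 0.00011). CREBBP T>C reads were 4.60 ± 1.45 and 6.50 ± 0.903 RPM at 2 h and did not pass the test at any time, with log2 fold changes of 0.50, 0.52 and -0.13. Under 3 other scalings the last changed sign and CREBBP T>C reads at 6 h passed the test, at 0.84 to 0.90 (adjusted p between 0.0092 and 0.045). Total CREBBP reads rose by 0.93 at 6 h (adjusted p = 0.00089) and by 1.23 at 24 h (adjusted p = 1.6e-05), and total EP300 reads by 0.71 (adjusted p = 0.0036) and 1.83 (adjusted p = 1.8e-08).

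Few partners of the E proteins had reads to test. Of 20 genes for tissue-specific partners (class II factors such as MYOD1 and TAL1), 4 had enough T>C reads to be tested. Of these 1 was lower at 6 h and 1 at 24 h, against 21.3% and 37.1% of all genes, and in total reads 1 of 5 was lower at each of these times, against 21.5% and 29.9%. BHLHA15, which encodes MIST1, a factor of secretory cells including plasma cells, had 18.5 ± 5.39 RPM of T>C reads in DMSO and 16.6 ± 2.30 in dCBP-30 at 2 h. It fell later, from 16.7 ± 1.42 to 0.760 ± 0.572 RPM at 6 h (log2 fold change -4.46, adjusted p = 1.5e-17) and from 30.8 ± 4.80 to 0.290 ± 0.222 at 24 h (-6.69, adjusted p = 1.1e-22). TWIST1 rose from 0.205 ± 0.0649 to 1.54 ± 0.467 RPM at 6 h (2.86, adjusted p = 0.019), a call that was lost without any of 3 single libraries, with adjusted p = 0.066 without replicate 1 of dCBP-30, 0.069 without replicate 1 of DMSO and 0.055 without replicate 2 of DMSO. Over the other settings tried its adjusted p ran from 0.0015 to 0.085. TWIST1 had 7, 9 and 47 T>C reads in DMSO and 34, 78 and 111 in dCBP-30 at the 3 times. It passed the filter on low counts through the dCBP-30 libraries, where it was higher. LYL1 and NHLH1 did not pass the test in T>C reads. In total reads TWIST1 rose at 6 h (2.54, adjusted p = 0.0008) and 24 h (2.41, adjusted p = 0.00048) and LYL1 at 24 h (1.99, adjusted p = 7.0e-06). Of all genes 28.6% rose in total reads at 24 h. At 6 h DESeq2 with size factors from total reads, a different test, called 421 genes higher in T>C reads and 2599 in total reads.

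Among 11 cofactor genes, of which 9 were tested, T>C reads were lower in 1 gene at 2 h and in 3 genes at 6 h; at 24 h 1 gene was lower and 1 higher. Over all genes 8.35%, 21.3% and 37.1% were lower at these times, so that 1 of 9 at 24 h was under the share of all genes. In total reads of the 9, 1 fell at 2 h, 4 at 6 h and 2 at 24 h, while 4 rose at 6 h and 5 rose at 24 h. Of all genes 2.67%, 21.5% and 29.9% fell in total reads at the 3 times, and 28.6% rose at 24 h. At 6 h DESeq2 with size factors from total reads called 2680 genes lower and 2599 higher. LMO4, a LIM-only bridging factor of E protein complexes, fell at all 3 times, with log2 fold changes of -1.83, -1.79 and -2.19 (adjusted p = 3.4e-14, 2.7e-14 and 1.0e-17). CBFA2T3, an ETO-family corepressor that E proteins recruit, fell at 6 h from 2.49 ± 0.412 to 0.182 ± 0.161 RPM (-3.75, adjusted p = 7.1e-06), and SSBP2 fell at 6 h by 1.73 on the log2 scale (adjusted p = 0.00039). Neither passed the test in T>C reads at 2 or 24 h, with -1.41 and -1.15 for CBFA2T3 and 0.14 and -0.47 for SSBP2. The list's median was -0.21, -0.14 and -0.21 at the 3 times, beside 0.05, -0.27 and -0.69 over all genes.

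Of 16 B-lineage genes known to be controlled by E proteins, 7 were tested in T>C reads, and 3, 3 and 5 of them were lower at 2, 6 and 24 h, against 8.35%, 21.3% and 37.1% of all genes; CCND3, a D-type cyclin, was higher at 2 h (1.12, adjusted p = 0.035) and lower at 24 h (-1.51, adjusted p = 0.00058). XBP1, the plasma cell regulator of secretion, fell from 206 ± 10.6 to 30.5 ± 4.07 RPM at 2 h and from 229 ± 1.86 to 9.92 ± 1.76 at 6 h (-4.53, adjusted p = 5.7e-30). PRDM1, which encodes BLIMP1, fell from 323 ± 16.2 to 24.4 ± 5.36 RPM at 2 h and stood at 16.1 ± 2.78 against 356.8 ± 10.52 at 6 h (-4.47, adjusted p = 4.9e-14). XBP1 and PRDM1 are also among the plasma cell markers given above. CDKN1A, the cell cycle inhibitor p21, fell at all times, most at 24 h (-2.98, adjusted p = 3.5e-19), and GFI1 fell at 24 h (-3.43, adjusted p = 2.3e-10) after values of -0.54 and -0.38 at 2 and 6 h. In total reads 3, 4 and 5 of 10 were lower, against 2.67%, 21.5% and 29.9% of all genes, and 1 was higher, at 6 h. As a different test, DESeq2 with size factors from total reads called 371 genes higher in T>C reads at 2 h. It called 2599 higher in total reads at 6 h. The list's median in T>C reads was -1.01, -1.24 and -2.98, beside 0.05, -0.27 and -0.69 over all genes.

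Upstream of the ID genes, 12 of 15 BMP receptor and SMAD genes were tested, and 2, 1 and 3 of them were lower in T>C reads at 2, 6 and 24 h, against 8.35%, 21.3% and 37.1% of all genes, so that the later counts were under the share of all genes. In total reads of 13 genes, 2 fell at 2 h, 2 at 6 h and 1 at 24 h, while 5 rose at 6 h and 8 rose at 24 h. Of all genes 2.67%, 21.5% and 29.9% fell in total reads at the 3 times, and 28.6% rose at 24 h. At 6 h DESeq2 with size factors from total reads called 2680 genes lower and 2599 higher. SMAD7, a feedback inhibitor of the pathway, fell from 21.3 ± 2.17 to 2.25 ± 0.898 RPM at 2 h (-3.21, adjusted p = 3.3e-15) and stayed lower at 24 h (-1.90, adjusted p = 1.1e-09). SMAD1, the signal carrier from BMP receptors, fell at 2 h from 4.19 ± 1.71 to 0.694 ± 0.409 RPM (-2.59, adjusted p = 0.0004) and stood at 4.52 ± 1.40 against 4.16 ± 1.73 at 24 h. BMPR2, a BMP receptor, had no T>C read in the DMSO libraries at 6 h and 70 in dCBP-30. That is at least 20.02-fold higher against a floor of 3 reads over the group, a bound that rests on the empty DMSO group. Its T>C reads averaged 1.375 RPM in dCBP-30 at 6 h, beside 0.523 and 0.495 RPM in DMSO at 2 and 24 h. Total BMPR2 reads rose by 0.62 on the log2 scale at 6 h (adjusted p = 0.031) and by 3.22 at 24 h (adjusted p = 1.8e-11). As a different test, DESeq2 with size factors from total reads called 421 genes higher in T>C reads at 6 h. At 2 h BMPR2 had 21 T>C reads in DMSO and 8 in dCBP-30 (-1.47, adjusted p = 0.425), and at 24 h 23 and 116 (2.07, adjusted p = 0.054); it had 10 or more T>C reads in every library of a group in dCBP-30 at 6 and 24 h alone, where it was high. The list's median was -0.12, 0.23 and -0.09, beside the medians of all genes just given.

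Of 9 other repressors that bind the E-box, 6 were tested, and 4, 5 and 5 were lower in T>C reads at the 3 times, against 8.35%, 21.3% and 37.1% of all genes. In total reads 3, 5 and 4 of 7 were lower, against 2.67%, 21.5% and 29.9% of all genes. HES1, a repressor in the Notch pathway, had 462 T>C reads in DMSO at 2 h and none in dCBP-30, at least 162-fold lower, and 623 against none at 6 h, at least 242-fold lower. BHLHE41 fell from 23.1 ± 0.751 to 1.58 ± 0.574 RPM at 2 h (-3.89, adjusted p = 1.3e-17) and stood at 11.4 ± 2.77 against 30.5 ± 2.79 at 24 h (-1.42, adjusted p = 8.6e-07). SNAI3 fell at 6 h from 3.14 ± 0.605 to 0.214 ± 0.210 RPM (-3.82, adjusted p = 4.2e-06). HEY1 had 71 T>C reads in DMSO at 24 h and none in dCBP-30, at least 28.4-fold lower. HEY1 did not pass the test at 2 h (28 T>C reads in DMSO and 2 in dCBP-30, adjusted p = 0.067). Nor did it at 6 h (58 and 34, adjusted p = 0.533). At the 3 times HES1 had 0, 0 and 46 T>C reads in dCBP-30, and SNAI3 had 11, 11 and 62. HES1 and SNAI3 met the filter on low counts through the DMSO libraries, where they were higher. The counts of lower genes include both. The list's median in T>C reads was -3.69, -2.73 and -2.19, beside 0.05, -0.27 and -0.69 over all genes.

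Over the 18 labelled libraries, which share the treatment and its timing, the pattern of TCF4 T>C reads (on the scale of log2 of RPM plus 0.5) was most like those of LPIN1 (Pearson r = 0.982), FOXO3 (0.98) and SLC30A1 (0.977), among 7557 genes whose median r was 0.271. TCF3 was most like HDGF (0.971), KPNB1 (0.966) and SH2B2 (0.964), ID2 like HERPUD1 (0.971), GNPDA1 (0.965) and DUSP5 (0.965), and ID3 like TMC6 (0.932), CAST (0.926) and ISY1-RAB43 (0.92). TCF12 reached 0.737 with SERINC3 and ID1 0.817 with RBM4, whose reads are the same as those of the readthrough gene RBM14-RBM4. Among the members, TCF4 and ID2 were the most alike pair (r = 0.923, Spearman's rho 0.876), ahead of TCF3 and TCF4 (0.815) and TCF3 and ID2 (0.809). ID3 was further from TCF3 (0.353) than from TCF4 (0.666) and ID2 (0.644).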

How the data were processed

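The study counted reads of 3′-end SLAM-seq libraries of MM1.S cells. The authors trimmed the reads with TrimGalore, mapped them to 3′ UTRs of hg38 with Slamdunk under default parameters, collapsed the result per transcript with alleyoop and deposited raw counts of reads, T>C reads, conversions, covered T positions and multimapping reads for each transcript and library, neither normalized nor pooled. A Drosophila spike-in was added before alkylation; it was not used here. Of 97466 transcript rows, 89088 (91.4%) matched GENCODE release 44; the others held between 0.0789% and 0.199% of a library's reads. As overlapping transcripts hold the same reads, a gene was counted on the transcript with the most reads.

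T>C reads and total reads were tested with edgeR 4.0.16 (R 4.3.3) by the robust quasi-likelihood test in one fit of 18 labelled libraries, with a mean for every group, total reads times TMM factors as library size, filterByExpr (minimum count 10) and Benjamini-Hochberg adjustment over all genes tested. The study's methods name DESeq; DESeq2 1.42.0 was an alternative here. The labelled share was fitted with edgeR to paired T>C and other reads with an effect for each library. RPM are relative to total reads times the TMM factor, and to total reads alone for the summed markers. Changes at 6 and 24 h were set against that at 2 h as interactions, which share the 2 h libraries. The fits were tested on simulated data. Other settings were the scaling, the filter (none, or a mean of 20 reads), an adjusted p under 0.1, summed transcripts, background subtraction, each time point alone, a replicate block, limma 3.58.1 on the log2 odds (0.5 added to both counts) and each library left out. Figures and tables used Python 3.11.15.

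The members, pathway lists and markers were chosen with earlier results of these data known. Named from each list were the up to 4 genes with the largest change in T>C reads among those past the test, more than 2-fold and averaging 20 or more T>C reads in whichever group was higher, beside EP300, CREBBP and the 3 genes most like each member; CCND3, LYL1 and NHLH1 were named after their values were seen. The libraries of a group were not copies of each other (chi-square per degree of freedom 8.54 to 50.1). RNA levels alone were analysed here. The summed level of 1 marker list is not reported here.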

Additional observations from a re-analysis of the deposited data

Results flagged for a closer look

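Results are given here because the change in dCBP-30 against DMSO differed between time points by a test of the difference itself (edgeR interaction, 3 libraries a group, adjusted over all genes). In T>C reads the difference between 6 and 2 h was -1.18 on the log2 scale for TCF3 (adjusted p = 0.0035), where 7.35% of all genes differed downwards. This TCF3 T>C reads difference between 6 and 2 h was -0.87 (adjusted p = 0.054) when library sizes came from T>C reads. Between 24 and 2 h it was -1.44 for TCF3 (adjusted p = 5.7e-05), where 23.0% did so, and 1.00 for TCF4 (adjusted p = 0.0015), 1.49 for ID2 (adjusted p = 0.00015) and 2.56 for ID3 (adjusted p = 2.9e-06), where 3.02% of all genes differed upwards. The median gene differed by -0.72 between these times, and the TCF3 difference ranged from -1.68 to -0.71 over the other settings tried. In total reads the difference was -1.33 for TCF3 (adjusted p = 5.7e-06) and -1.03 for TCF4 (adjusted p = 5.9e-05) between 6 and 2 h. Between 24 and 2 h it was -1.81 for TCF3 (adjusted p = 1.5e-08), 1.59 for TCF12 (adjusted p = 5.1e-05), 2.23 for ID2 (adjusted p = 2.2e-08) and 2.98 for ID3 (adjusted p = 7.8e-07). In the labelled share TCF4 differed by 1.52 between 6 and 2 h (adjusted p = 0.0079) and by 1.01 between 24 and 2 h (adjusted p = 0.043), and ID2 by -1.72 between 24 and 2 h (adjusted p = 0.031). With single libraries left out, the adjusted p of these last differences ran from 0.011 to 0.12 for TCF4 and from 0.017 to 0.081 for ID2, with 0 to 2 members past the test, and the replicate block took the TCF4 call (adjusted p = 0.054). All differences from 2 h share the 2 h libraries.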

How the results depend on the processing

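Of the members' values, 554 kept direction and side of the threshold under another setting, 16 lost the call, 3 gained one and 4 changed sign; leaving out single libraries gave 456, 25, 1 and 10. TCF12 T>C reads at 6 h became 0.01 without TMM factors, 0.03 scaled by T>C reads and 0.09 in DESeq2 with T>C size factors, CREBBP T>C reads at 24 h 0.39, 0.53 and 0.62 under the same settings, and total ID2 reads at 24 h 0.32 without TMM factors; the cause was not tested. ID2 T>C reads at 24 h lost the call under these 3 scalings (-0.52, -0.38 and -0.30). With scaling by T>C reads, 0 members (1 otherwise) differed in T>C change between 6 and 2 h, TCF3 being at -0.87 (edgeR, adjusted p = 0.054). In the labelled share at 6 h, 1 member passed (2 otherwise) with no filter, with a replicate block, with summed transcripts, with limma and with each time point fitted alone, and 1 to 2 when single libraries were left out. ID3 T>C reads at 24 h lost the call with summed transcripts (0.78, adjusted p = 0.10).

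Leaving out single libraries, T>C reads ranged from -0.08 to 0.51 for EP300 at 2 h, from -0.11 to 0.28 for EP300 at 6 h and from -0.50 to 0.01 for TCF12 at 6 h. Total reads at 6 h ranged from -0.07 to 0.20 for TCF12 and from -1.81 to 0.00 for ID1. The labelled share ranged from -0.36 to 0.12 for ID2 at 2 h, and at 6 h from -0.18 to 0.07 for TCF4 and from -0.68 to 0.01 for TCF12. The differences in share between 24 and 2 h for TCF4 and ID2 lost one or both calls without most single libraries. ID1 T>C reads at 6 h were -5.69 (adjusted p = 0.03) without replicate 1 of dCBP-30.

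Replicate numbers did not pair the samples: same-number deviations correlated between -0.432 and 0.129, over 0.1 in 1 of 9 pairs, and 2 of 9 dCBP-30 libraries were closest to the DMSO library of their number. The replicate block took the call from the ID2 labelled share at 6 h (-1.22, adjusted p = 0.062) and from the TCF4 labelled share difference between 24 and 2 h (1.01, adjusted p = 0.054), and from no other member. Counting TCF4 on its coding transcript, chosen after seeing the data, changed no call. TCF12 and ID1 were limited by their few reads.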
